A study of Callithrix jacchus with 3 samples.

Results

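The sequences described here are small RNAs of the marmoset testis that have the length of piRNAs, 26 to 32 nt, a uridine as first base (U1, written T in the files) and an adenine at position 10 (A10), counted from 1 at the 5′ end. They are called U1A10 sequences and are set against sequences of the same lengths that start with U and have C, G or U at position 10. The rule used the sequence letters and lengths only. It found 1358924 distinct U1A10 sequences with 30164630 reads in MARWI-IP and 480877 with 3019564 reads in total testis small RNA, of 6912324 and 2668455 distinct sequences in all. U1 sequences with another base at position 10 numbered 3184917 with 65645361 reads in MARWI-IP and 1170540 with 7059110 reads in total testis small RNA. Over both files there were 1611870 distinct U1A10 sequences among 7460972 of piRNA length.

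The tissue was testis of wild-type adult common marmosets (Callithrix jacchus). MARWI-IP is RNA recovered by immunoprecipitation of MARWI, a PIWI protein, from testis lysate; its label names 2 replicates and ages of 41 and 51 months, and its file has 1 column. Total testis small RNA was gel-purified testis RNA from an animal aged 41 months. No immunoprecipitation with a control antibody is analysed here, and neither group has a value for the spread between samples, so no test was made and every interval is an exact (Clopper-Pearson) 95% interval for counting error alone. Reads carried no molecular identifiers, so the same RNA molecule may have been read more than once. MARWI-IP lists 24 to 33 nt only, with 110209593 reads, and total testis small RNA held 12792323 reads in that range. Levels are given as reads per 1000000 reads of 24 to 33 nt (RPM), on which 1 read is 0.00907 in MARWI-IP and 0.0782 in total testis small RNA.

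PIWI proteins hold piRNAs and use them to find complementary RNAs, which they cut opposite positions 10 and 11 of the piRNA. In the ping-pong cycle, best known from flies and from the fetal testis of mice, the cut makes the 5′ end of a new piRNA from the opposite strand. Partners made this way overlap by 10 bases at their 5′ ends, so a piRNA that starts with U has a partner with A at position 10. Many piRNAs of the adult mammalian testis are instead cut one after another from long single-stranded precursors, and these share the first U without a rule for position 10. A sequence with both U1 and A10 has a particular property: the reverse complement of its first 10 bases again starts with U and has A at position 10, so any 10-base partner is itself a U1A10 sequence.

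The sequences that carried most U1A10 reads are shown first, with positions 1 and 10 in capitals. They are the 10 most abundant of each file, 14 in all, of which 6 were in both lists. P1 to P10 are ordered by their reads in MARWI-IP, and P11 to P14 were among the leading sequences of total testis small RNA only.
P1: TtagattgtAaaaatgtgtgcacaaccatg
P2: TtgatggtaAttggaagagcatcttgggt
P3: TatcaagtgAatagtagttttgactaagct
P4: TcttcattgAgtctgaagacactccaaga
P5: TttcttgaaAgaagagtccacacttgctgt
P6: TggaagaaaAgttggatgcatttgaagtc
P7: TtctttagtAgcacgtctggtattttggtg
P8: TaactgacaAactcttatgaccagtgaagg
P9: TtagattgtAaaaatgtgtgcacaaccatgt
P10: TcaataaatAtttgtagaatgcatgaatgc
P11: TcttcattgActctgaagatgctccaaga
P12: TtccatctcActgactgactgtgtcttc
P13: TtgaagaggAacttttctactgcctgcatc
P14: TtaatgtagAcgttcaactgggtagccttt

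P9 is P1 with 1 more base at its 3′ end, so the 10 leading sequences of MARWI-IP came from 9 different 5′ ends. P4 and P11 have the same first 10 bases and differ at 3 positions over their 29 nt. For comparison, the most abundant U1 sequence with another base at position 10 was TcccacatgGtctagcggttaggattcct in both files, with 19756 RPM in MARWI-IP and 3548 in total testis small RNA. It has G at position 10, and so does TcccatatgGtctagcggttaggattcct, with 9187 and 1411 RPM. TaaatgtctTgcggaagcgaattaatgta, with T at position 10, had 1982 RPM in MARWI-IP and 2185 in total testis small RNA, where it was among the 3 leading ones.

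P1 led the U1A10 sequences of both files, with 1072903 reads (9735 RPM) in MARWI-IP and 77470 reads (6056 RPM) in total testis small RNA. P2 came next in MARWI-IP, with 729827 reads, but had 8716 reads in total testis small RNA, and its share was 9.72 times as high in MARWI-IP (9.52 to 9.93). P4 was next to P1 in total testis small RNA, with 377385 reads in MARWI-IP and 60032 in total testis small RNA, a ratio of 0.730 (0.723 to 0.736). The order of abundance thus differed between the files from the second place on.

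P3 had 435874 reads in MARWI-IP and 28141 in total testis small RNA, a ratio of 1.80 (1.78 to 1.82). P6 had 352559 and 9393 reads, a ratio of 4.36 (4.27 to 4.45), and P7 had 306971 and 10924 reads, a ratio of 3.26 (3.20 to 3.32). P5, P8, P9 and P10 lay between 1.43 and 2.76. Of the 10 leading sequences of MARWI-IP, 9 had a higher share there than in total testis small RNA, and of the 10 of total testis small RNA 5 did. Sequences picked as leading in a file tend to be higher in that file, so these counts describe the lists and no more.

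P11 had 21112 reads in MARWI-IP and 16488 in total testis small RNA, a ratio of 0.149 (0.146 to 0.152). It lay below P4, which shares its first 10 bases, at 0.730. P12, P13 and P14 had ratios of 0.502, 0.733 and 0.408. Position 5, where A is the commonest base of these files, was A in 4 of the 10 leading sequences of MARWI-IP and in 5 of those of total testis small RNA, and G in none.

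A was the leading base at position 10 of U1 reads in both files. Among U1 reads of piRNA length, A was the base at position 10 in 31.48% of MARWI-IP reads (31.47% to 31.49%) and 29.96% of total testis small RNA reads (29.93% to 29.99%). The next most frequent base was T, at 26.9% in MARWI-IP and 28.6% in total testis small RNA, followed by G at 25.8% and 23.8% and C at 15.8% and 17.7%. Without the 10 most abundant sequences of each file A was 31.5% and T 29.5% in MARWI-IP, and the lead was gone in total testis small RNA, where both were 29.1%. With each distinct sequence counted once, A was 29.9% in MARWI-IP and 29.1% in total testis small RNA and T was 30.9% and 29.9%, so A led at position 10 by reads and not by distinct sequences. U1 reads had A at position 10 less often than reads with another first base in MARWI-IP, where the share was 38.8% after a first A, 37.6% after a first C and 38.5% after a first G. In total testis small RNA it was 42.6%, 45.02% and 18.9% after these bases. Reads starting with G there were led by a base G at position 10, at 64.9%. That class averaged 17.8 reads per sequence. Over distinct sequences starting with G, A led at position 10 with 39.2%, and G was 21.7%.

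By reads, position 10 was the richest in A of all positions from 2 to 26 other than position 5. In all U1 reads A was 44.4% at position 5 and 31.5% at position 10 in MARWI-IP, and the other 23 positions averaged 25.97% (23.01% to 31.3%). Total testis small RNA had A in 39.4% of reads at position 5 and in 29.96% at position 10, with a mean of 25.8% (23.4% to 28.8%) at the other positions. The highest of these others in MARWI-IP, position 14 at 31.3%, was close to the 31.5% at position 10, and with the 10 most abundant sequences left out it was position 6, at 29.7% against 31.5% at position 10. With distinct sequences counted once, position 6 lay above position 10 in both files, at 30.9% against 29.9% in MARWI-IP and 29.4% against 29.1% in total testis small RNA.

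The lengths of U1A10 and other U1 reads were nearly the same, with a shift toward 30 nt. U1A10 reads were 29.33 ± 1.18 nt long in MARWI-IP (mean ± SD over reads), against 29.25 ± 1.16 nt for other U1 reads. Means in total testis small RNA were 29.27 ± 1.31 nt for U1A10 and 29.17 ± 1.34 nt for other U1 reads. The differences, 0.0777 and 0.106 nt, were small beside the spread over reads.

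U1A10 reads were more often 30 nt long and less often 29 nt or 26 to 28 nt long. In MARWI-IP, 30-nt reads were 36.5% of U1A10 reads and 31.9% of other U1 reads, whereas 29-nt reads were 32.8% of U1A10 and 36.7% of other U1 reads. In total testis small RNA, 30-nt reads were 31.99% of U1A10 and 28.3% of other U1 reads, and 29-nt reads were 30.1% and 31.4%. Reads of 26 to 28 nt were 18.8% of U1A10 and 20.2% of other U1 reads in MARWI-IP and 23.1% and 26.2% in total testis small RNA. Reads of 31 and 32 nt were 11.9% and 11.2% in MARWI-IP, and 14.9% and 14.05% in the other file. By reads, U1A10 therefore had its mode at 30 nt in both files, and other U1 had its mode at 29 nt. In total testis small RNA, U1A10 had 965814 reads of 30 nt, P1 holding 77470, and 907930 of 29 nt, P4 holding 60032. The lead of 30 nt there was smaller than the reads of P1 alone. Counted as distinct sequences, U1A10 had its mode at 29 nt in total testis small RNA, with 117082 against 104544 of 30 nt. In MARWI-IP the counts were nearly equal, at 365676 for 29 nt and 367274 for 30 nt.

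Seen by length, the A10 share of U1 reads in MARWI-IP was 32.4% for 26 nt, 30.97% for 27 nt, 28.96% for 28 nt, 29.1% for 29 nt, 34.4% for 30 nt, 32.004% for 31 nt and 38.0% at 32 nt. In total testis small RNA it was 27.3% for 26 nt, 27.3% for 27 nt, 27.4% for 28 nt, 29.1% for 29 nt, 32.6% for 30 nt, 31.004% for 31 nt and 31.8% at 32 nt. The files were alike at 29 nt and differed most at 32 nt. Single sequences carried part of this. At 30 nt P1 alone was 9.75% of U1A10 reads in MARWI-IP and 8.02% in total testis small RNA. With the 5 most abundant U1 sequences of each length left out, a step added after the values were seen, the MARWI-IP share was 32.4% for 30 nt and 31.8% for 32 nt, where all 5 had been U1A10 sequences, against 31.04% and 31.4% in total testis small RNA. Over distinct sequences it was 28.9% to 30.9% in MARWI-IP and 26.2% to 31.2% in total testis small RNA.

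The 3′ ends of U1A10 sequences were as uniform as those of other U1 sequences. Among 5′ ends with 100 or more reads (identical first 20 nt), 17830 were U1A10 in MARWI-IP and 3902 in total testis small RNA. The commonest sequence of an end held a median of 57.1% of its reads for U1A10 and 57.1% for other U1 ends in MARWI-IP, and 58.1% and 58.5% in total testis small RNA. It was 30 nt long in 38.3% of U1A10 and 36.2% of other U1 ends of MARWI-IP, and in 37.03% and 33.8% of those of total testis small RNA. It was 28 nt long in 8.58% and 10.4% in MARWI-IP and 8.64% and 11.2% in total testis small RNA. With each end counted once, the shift of U1A10 toward 30 nt remained in both files and was smaller than by reads.

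U1A10 reads were concentrated in fewer sequences than other U1 reads. The 10 most abundant sequences held 14.6% of U1A10 reads and 10.6% of other U1 reads in MARWI-IP, and 9.37% and 3.72% in total testis small RNA. In MARWI-IP, 1053 sequences held 50% of U1A10 reads, against 3924 for other U1 reads, and in total testis small RNA 3001 did, against 10112. The other U1 sequences were the larger set, which by itself takes more sequences to reach a given share. At the low end the sets were alike, with 64.8% of U1A10 and 64.5% of other U1 sequences read once in MARWI-IP, and 71.6% and 71.1% in total testis small RNA.

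The share of U1 reads with A10 was flat over most of the range of abundance and higher only at its top. In MARWI-IP it was 29.6% of reads from sequences under 1 RPM, 29.4% from 1 to 10, 28.8% from 10 to 100, 35.3% from 100 to 1000 and 38.2% at 1000 or more. The classes of total testis small RNA gave 29.1%, 28.02%, 28.4%, 30.6% and 49.2%. The top class was small: 16 U1A10 and 21 other U1 sequences in MARWI-IP, and 10 and 12 in total testis small RNA.

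Counted as sequences, A10 was 43.2% of that top class in MARWI-IP (27.1% to 60.5%) and 45.5% in total testis small RNA (24.4% to 67.8%). Both intervals include the 29.9% and 29.1% of all distinct U1 sequences, so an excess of U1A10 among the sequences at 1000 RPM was not detectable at this number of sequences. From 100 to 1000 RPM, MARWI-IP held 216 U1A10 and 407 other U1 sequences, so A10 was 34.7% (30.9% to 38.6%), and total testis small RNA held 145 and 345, so A10 was 29.6% (25.6% to 33.9%). The MARWI-IP interval lies above the 29.9% of all distinct U1 sequences, and that of total testis small RNA includes 29.1%. Sequences that share a 5′ end, such as P1 and P9, were counted separately, so these intervals are too narrow. A at nearby positions moved in both directions. Over positions 6 to 15 other than 10 it averaged 27.5% in the lowest class of MARWI-IP, with single positions at 26.3% to 30.4%, and 25.02% in the highest, with single positions at 11.4% to 56.3%. In total testis small RNA the averages were 26.5% and 23.4%, with single positions at 25.2% to 29.1% in the lowest and 5.29% to 44.3% in the highest class. In MARWI-IP one of these positions was thus richer in A in the highest class than position 10, at 38.2%. Position 5 had 36.3% A in the lowest class and 56.9% in the highest in MARWI-IP, a larger move than that of position 10. In the other file position 5 had 34.4% and 54.7%, a move like that of position 10.

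Position 5 was A as often in U1A10 as in other U1 reads, to within a few points. A was at position 5 in 43.3% of U1A10 and 44.97% of other U1 reads of MARWI-IP, a difference of -1.67 points. The shares in total testis small RNA were 39.5% of U1A10 and 39.4% of other U1 reads, a difference of 0.138 points. With the 10 most abundant sequences of each file left out, the difference was -1.34 points in MARWI-IP and -1.24 points in total testis small RNA. With distinct sequences counted once it was 0.402 and -0.102 points. Reads with A at both positions were 13.6% of U1 reads in MARWI-IP, where the product of the separate shares is 13.99%, and 11.85% in total testis small RNA, where it is 11.8%. A at position 5 and A at position 10 thus coincided about as often as their separate shares give. G at position 5, the rarest base there, was 9.68% of U1A10 and 10.2% of other U1 reads in MARWI-IP and 14.99% and 15.7% in total testis small RNA.

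The bases beside position 10 differed between U1A10 and other U1 reads, and so did bases far from it. T stood at position 9 in 26.1% of U1A10 and 35.1% of other U1 reads of MARWI-IP, and in 22.4% and 36.9% in total testis small RNA. At position 11 T was 24.8% of U1A10 and 39.3% of other U1 reads in MARWI-IP, and 22.8% and 34.5% in total testis small RNA. C at position 8 was 13.1% and 18.0% in MARWI-IP and 14.8% and 21.7% in total testis small RNA. C at position 9, directly before the A, was higher in U1A10, at 17.8% and 14.8% in MARWI-IP and 20.96% and 17.9% in total testis small RNA. Far from position 10, T at position 2 was 33.97% of U1A10 and 21.8% of other U1 reads in MARWI-IP and 27.8% and 20.9% in total testis small RNA. In MARWI-IP C at position 3 was 20.2% and 32.5%, and G at position 23 was 18.3% and 29.2%. Without the 10 most abundant sequences T at position 2 was 30.7% and 22.99% in MARWI-IP and 26.7% and 21.2% in total testis small RNA. In MARWI-IP C at position 3 was then 22.1% and 26.7%, and G at position 23 was 20.03% and 24.01%. Over distinct sequences of MARWI-IP these were 22.5% and 23.9%, and 22.2% and 21.8%. T at position 2 was then 28.01% and 28.6% in MARWI-IP and 25.01% and 24.8% in total testis small RNA. These differences far from position 10 thus held by reads, and over distinct sequences they were small or reversed.

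With distinct sequences counted once, the differences at positions 8, 9 and 11 were of about the size found beside an A at other positions. Each was computed as the share in sequences with A at a position minus the share in those without, for positions 6 to 20. For T before the A it was -13.2 points at position 10 in MARWI-IP, within the range of -14.4 to -12.2 at the other 14 positions, and -14.1 in total testis small RNA, within -15.1 to -12.7. For C at 2 bases before the A it was -5.498 points in MARWI-IP, within -6.51 to -3.88, and -5.44 in total testis small RNA, within -5.71 to -3.37. For T after the A it was -6.6496 points in MARWI-IP, within -8.78 to -5.53, and -6.51 in total testis small RNA, just outside the range of -7.94 to -6.54.

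By reads, 2 differences beside position 10 lay outside the range of the other positions. T after the A was at -11.7 points in total testis small RNA, against -10.9 to -3.47 elsewhere, and G before the A was at -1.38 points in MARWI-IP, against -1.12 to 18.5 elsewhere. The other differences listed were inside their ranges by reads, which were wide.

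Over the other 24 of the first 26 positions, A was slightly more frequent in U1A10 sequences. Its mean was 28.7% in U1A10 and 25.9% in other U1 reads of MARWI-IP, and 27.8% and 25.8% in total testis small RNA, and A was higher in U1A10 at 19 of these positions in MARWI-IP and at 20 in total testis small RNA. The G and C content over the same positions was 41.5% in U1A10 and 42.6% in other U1 reads of MARWI-IP, and 43.7% and 44.2% in total testis small RNA. By distinct sequences it was 41.8% and 41.4%, and 43.7% and 43.7%. The last base of the RNA was C in 26.95% of U1A10 and 30.1% of other U1 reads of MARWI-IP and in 31.1% and 33.3% in total testis small RNA, and T in 30.3% and 31.04%, and 27.9% and 27.7%.

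U1A10 reads had a larger share in MARWI-IP than in total testis small RNA, and other U1 reads did too. Of all reads of 24 to 33 nt, U1A10 reads were 27.4% in MARWI-IP and 23.6% in total testis small RNA, a ratio of 1.160 (1.158 to 1.161). Other U1 reads were 59.6% and 55.2%, a ratio of 1.079 (1.079 to 1.080). By base at position 10, the ratio was 1.196 for G, 1.040 for T and 0.986 for C, so U1A10 lay below U1 with G at position 10. With the 10 most abundant sequences of each file left out, the ratios were 1.157 for A, 1.085 for T, 1.015 for G and 0.983 for C. Counted as distinct sequences, U1A10 was not higher in MARWI-IP, with a ratio of 0.989. Numbers of distinct sequences depend on depth, which differed between the files, and the like ratio for other U1 sequences is not given here.

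The ratio depended on length for both kinds. For U1A10 reads it was 0.921 for 26 nt, 0.825 for 27 nt, 1.014 for 28 nt, 1.265 for 29 nt, 1.322 for 30 nt, 0.963 for 31 nt and 0.785 for 32 nt. For other U1 reads it was 0.719, 0.691, 0.938, 1.263, 1.215, 0.919 and 0.596 at the same lengths. At 29 nt the intervals overlapped, from 1.262 to 1.268 for U1A10 and from 1.261 to 1.265 for other U1 reads. At the other 6 lengths U1A10 had the higher ratio, by the most at 26 and 32 nt. Outside the piRNA window the ratios were 0.870 and 0.733 at 24 nt and 0.395 and 0.401 at 33 nt.

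The base at position 5 went with larger differences in ratio than the base at position 10. Among U1A10 reads the ratio was 1.270 with A at position 5, 1.360 with T, 0.969 with C and 0.749 with G. Among other U1 reads it was 1.232 with A, 1.168 with T, 0.932 with C and 0.699 with G. In both kinds reads with G at position 5 had the lowest ratio, and U1A10 lay above other U1 reads for each base at position 5.

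The shares of U1A10 sequences at least 2-fold higher or lower in MARWI-IP were near those of all piRNA-length sequences. Of the distinct U1A10 sequences, 227931 were in both files, 16.8% of those in MARWI-IP and 47.4% of those in total testis small RNA, and they held 92.6% and 90.4% of U1A10 reads. For other U1 sequences the shares were 17.3% and 47.1% of sequences and 92.04% and 89.8% of reads. A mean of 10 RPM over both files was reached by 2905 of the 1611870 U1A10 sequences, which held 59.5% of U1A10 reads in MARWI-IP and 48.05% in total testis small RNA. Of these, 1063 (36.6%, 34.8% to 38.4%) had at least 2 times the share in MARWI-IP, where the same held for 35.5% of all 10879 piRNA-length sequences at that level and 35.8% of other U1 sequences.

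At most 0.5 times the share was found for 562 (19.3%, 17.9% to 20.8%), against 22.0% of all piRNA-length sequences and 21.5% of other U1 sequences. Sequences without U1, which are part of the 22.0%, were at 36.8%. The interval for the higher sequences includes the background, and that for the lower sequences lies a little under it. Here too, sequences that share a 5′ end were counted separately, so these intervals and those below for counts of sequences are too narrow. At a mean of 50 RPM or more, 46.1% of U1A10 sequences (41.4% to 50.9%) were at least 2-fold higher in MARWI-IP. The share was 39.9% for all piRNA-length sequences at that level. At a mean of 10 RPM or more, 11.3% of U1A10 sequences (10.1% to 12.5%) were at least 4-fold higher in MARWI-IP, against 10.3% of all piRNA-length sequences. The median ratio was 1.53 for U1A10, with quartiles of 0.681 and 2.61, against 1.45 for other U1 sequences, with quartiles of 0.629 and 2.51. By base at position 5, the median ratio of these U1A10 sequences was 1.71 for A, 1.61 for T, 1.43 for C and 0.990 for G, and that of other U1 sequences was 1.56, 1.55, 1.47 and 0.872.

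The range among U1A10 sequences with a high mean over both files was wide. Over the 175 with a mean of at least 100 RPM, the ratio ran from 0.0156 to 11.8 with a median of 1.92. A sequence can reach that mean through 1 file alone, which by itself widens the range. The ratio was above 1 for 132 of them, 75.4% (68.4% to 81.6%), against 70.5% of 359 other U1 sequences and 69.5% of all 606 piRNA-length sequences at that level, whose medians were 1.755 and 1.756. The interval for U1A10 includes both shares. The 3 highest and 3 lowest are shown with positions 1 and 10 in capitals.
Highest, H1: TctttcagtAaaaactcagggtatgatgg
Highest, H2: TtgatggtaAttggaagagcatcttg
Highest, H3: TtgatggtaAttggaagagcatcttggg
Lowest, L1: TagtgaataAggctcacaagatctcatt
Lowest, L2: TaactgctgAatgatagaagaacctcc
Lowest, L3: TctgctgagAatgataccatttacaagggc

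H1 had 30240 reads in MARWI-IP and 297 in total testis small RNA, a ratio of 11.8 (10.5 to 13.3). H2 and H3 are shorter forms of P2 with ratios of 11.3 (10.4 to 12.3) and 9.77 (9.32 to 10.2), and the interval of H3 overlaps that of P2 at 9.72, while that of H2 lies above it. L1 had 738 reads in MARWI-IP and 5495 in total testis small RNA, a ratio of 0.0156 (0.0144 to 0.0168). L2 had 799 and 3289 reads and L3 734 and 3008, with ratios of 0.0282 and 0.0283. The 3 lowest had 6.66 to 7.25 RPM in MARWI-IP and 235 to 430 in total testis small RNA. They reached the mean of 100 RPM through the latter only. H1, with 274 RPM in MARWI-IP and 23.2 in total testis small RNA, reached it through MARWI-IP.

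Complementary 5′ ends were then counted among U1A10 reads. With palindromes left out, 2 U1A10 reads were complementary over their first 10 bases 42.8 times as often as their base shares at each position give in MARWI-IP. Total testis small RNA gave 17.6 times. The same count was made at other overlaps, with U1 reads that have A at the last overlapping position. It gave 1.36 at 9 nt and 0.996 at 11 nt in MARWI-IP, and 1.23 and 1.55 in total testis small RNA. From 5 to 8 nt the ratio was 1.18 to 1.29 in MARWI-IP and 1.18 to 1.31 in total testis small RNA.

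At longer overlaps the ratio was high again, at 27.9 at 16 nt and 356 at 20 nt in MARWI-IP and 128 and 8566 in total testis small RNA. Pairs of U1A10 ends made up 98.9% of all read pairs complementary over 10 nt in MARWI-IP, counted over every class of first base and position 10, and 93.4% in total testis small RNA. These shares depend on class size too, because U1A10 reads can pair only among themselves. MARWI-IP held 30164630 U1A10 reads and 4138977 A10 reads without U1, and total testis small RNA held 3019564 and 654903. The share that base shares alone give is not shown here, so 98.9% and 93.4% are not a measure of excess. Pairs between U1 reads without A10 and A10 reads without U1 were 1.03% and 6.35%, and their frequency was 2.23 times that given by base shares in MARWI-IP and 3.43 times in total testis small RNA.

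Few sequences stood behind these pairs. The leading pair was 65.8% of U1A10 read pairs in MARWI-IP and 38.7% in total testis small RNA, and the 5 leading pairs were 96.02% and 86.2%. The 5 leading pairs of each file are 7 different pairs, shown by the commonest sequence of each end with the first 10 bases in capitals. The commonest sequence is that of MARWI-IP for pairs 1 to 5 and that of total testis small RNA for pairs 6 and 7. For the partners of pairs 1, 3 and 7 the commonest sequence of the other file has a different 3′ end. The more abundant end stands first, and the second sequence is its partner.
Pair 1: TTGATGGTAAttggaagagcatcttgggt
Pair 1, partner: TTACCATCAAcatagaaactcggctcccca
Pair 2: TTCTTTAGTAgcacgtctggtattttggtg
Pair 2, partner: TACTAAAGAActtgctcatgtgacaccacc
Pair 3: TCAATAAATAtttgtagaatgcatgaatgc
Pair 3, partner: TATTTATTGAatgttcactcagtgcaaga
Pair 4: TGGAAGAAAAgttggatgcatttgaagtc
Pair 4, partner: TTTTCTTCCAcctttgtgtcctctgtgtcc
Pair 5: TATCAAGTGAatagtagttttgactaagct
Pair 5, partner: TCACTTGATAttctagaagccccagaca
Pair 6: TCTTCATTGAgtctgaagacactccaaga
Pair 6, partner: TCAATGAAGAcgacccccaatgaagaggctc
Pair 7: TTAGATTGTAaaaatgtgtgcacaaccatg
Pair 7, partner: TACAATCTAAttatagaagctcttcatt

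Pair 1 led in MARWI-IP. Its ends had 1077544 and 285487 reads there, 1038 and 841 times the reads that base shares give for these 10 bases, and 13058 and 7891 reads in total testis small RNA. The more abundant end is that of P2, and both ends had a higher share in MARWI-IP, by 9.58 times (9.41 to 9.75) and 4.20 times (4.11 to 4.29).

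Pair 2 had 462267 and 253706 reads in MARWI-IP and 16008 and 14358 in total testis small RNA, where the ends were nearly equal. Its more abundant end is that of P7, and its ends had 3.35 and 2.05 times their total share in MARWI-IP. Pairs 1 and 2 were those in which both ends were abundant; in the other pairs the partner was 8.97 to 1180 times rarer than the leading end in MARWI-IP and 9.68 to 45.2 times rarer in total testis small RNA.

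Pair 3 had 340376 and 37950 reads in MARWI-IP and 14663 and 968 in total testis small RNA. It was the one pair of the 7 whose rarer end had the larger ratio between files, 4.55 (4.27 to 4.86) against 2.69 (2.65 to 2.74). Pair 4, with the end of P6, had 416202 and 17210 reads in MARWI-IP and 11542 and 1192 in total testis small RNA. Pair 5, with the end of P3, had 663546 and 6356 reads in MARWI-IP and 41537 and 918 in total testis small RNA.

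Pair 6 led in total testis small RNA, with 451119 and 8967 reads in MARWI-IP and 85744 and 7265 in total testis small RNA. Its more abundant end holds P4 and P11, and its partner had 0.143 times the total share in MARWI-IP (0.139 to 0.148). Pair 7 has the end of P1 and P9, with 1666764 and 1413 reads in MARWI-IP and 126741 and 3106 in total testis small RNA. Its partner TACAATCTAA had 12.8 RPM in MARWI-IP and 243 in total testis small RNA, a ratio of 0.0528 (0.0496 to 0.0563), while the P1 end had a ratio of 1.53.

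In 6 of the 7 pairs the rarer end had the lower ratio of MARWI-IP to total share, and in 3 it was below 1. The pairs were selected on their reads in these files, so this count is a description of the 7 pairs.

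Beyond these sequences the ratios were far lower. The 5 leading pairs of each overlap were then left out, a step extended to 9 and 11 nt once values were known. They were left out of the observed pairs only. The expected number still includes their reads, so these ratios are lowered and are to be compared between overlaps rather than with 1. What remained at 10 nt in MARWI-IP was 1.70, against 0.861 at 9 nt and 0.641 at 11 nt. For total testis small RNA it was 2.44 against 1.08 and 0.980. With each distinct U1A10 sequence counted once the 10-nt ratio was 1.62 in MARWI-IP, between 1.36 at 9 nt and 1.69 at 11 nt, and 1.91 in total testis small RNA, between 1.43 and 2.13. Pairs of U1 reads without A10 and A10 reads without U1 gave similar 10-nt ratios. Without their 5 leading pairs these were 1.70 in MARWI-IP and 2.66 in total testis small RNA. Over distinct sequences they were 1.71 and 2.28, above those of U1A10. The low ratios beyond the leading pairs were thus not particular to U1A10. Of the 65536 possible first 10 bases with T first and A last, 59303 occurred in MARWI-IP and 53851 in total testis small RNA, so the mere presence of a partner says little.

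Partners were also sought end by end. For the 1000 most abundant U1A10 ends of each file, all piRNA-length reads that start with the reverse complement of the end's first bases were set against the number that base shares give. Palindromes aside, 46 of 995 ends (4.62%) in MARWI-IP had 10 or more times that number at 10 nt, against 22 of 1000 at 9 nt and 26 of 1000 at 11 nt. For total testis small RNA the numbers were 56 of 996 ends (5.62%) at 10 nt, against 21 at 9 nt and 43 at 11 nt. The median end had fewer partner reads than base shares give, at 0.194 times in MARWI-IP and 0.403 times in total testis small RNA. Medians lay below 1 at every overlap from 7 to 13 nt, so this was not particular to 10 nt. In MARWI-IP they were 0.326 at 9 nt and 0.0755 at 11 nt, and in total testis small RNA 0.421 and 0.

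The 1000 most abundant U1 ends with another base at position 10, whose partners have A10 and a first base other than U, gave 43 ends (4.30%) at 10 nt in MARWI-IP, against 15 at 9 nt and 23 at 11 nt. For total testis small RNA they gave 89 ends (8.90%), against 17 and 33. At 12 and 13 nt U1A10 ends gave 27 and 28 such ends in MARWI-IP, fewer than the 46 at 10 nt, but 58 and 71 in total testis small RNA, more than the 56 at 10 nt. Ends without A10 gave 26 and 23 at these overlaps in MARWI-IP and 68 and 78 in total testis small RNA, fewer than at 10 nt. The median end without A10 had 0.305 times the partner reads that base shares give in MARWI-IP and 0.736 times in total testis small RNA. Both lie above the medians for U1A10 ends. The cut of 10 times is relative to the number that base shares give. Median partner reads at 10 nt were 110 for U1A10 and 6 for other U1 ends in MARWI-IP. In total testis small RNA these medians were 20 and 2, and at 12 and 13 nt all were 0. The counts of ends are therefore not a like measure across kinds or overlaps.

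Among the 10 most abundant U1A10 ends of MARWI-IP, 5 had a 10-nt partner at 10 or more times the number given by base shares, namely those of P2 at 1123 times, P7 at 173, P6 at 68.8, P10 at 19.7 and P4 at 13.0 times. The end of P5 was at 0.168 times and that of P1 at 0.972 times. Of the 5 ends, 3 also passed 10 times at another overlap in MARWI-IP. The P7 end was at 22.1 times at 9 nt and 23.9 at 11 nt, and the P6 end at 12.9 and 17.9. The P2 end was at 1.13 times at 9 nt and 144 at 11 nt. Those of P10 and P4 stayed below 10 times at both overlaps. In total testis small RNA the 6 ends at 10 or more times were those of P7 at 156 times, P4 and P11 at 115 times with the same partner, P1 at 33.03, P8 at 19.97 and P3 at 13.1 times. The end of P14 was at 0.353 times. Of the 6 ends, that of P4 was also at 61.8 times at 11 nt, and the others stayed below 10 times at 9 and 11 nt. High abundance of a U1A10 end thus came with an abundant 10-nt partner in some ends and without one in others.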

How the data were processed

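Small RNA counts were deposited by the authors as 1 table per library, with a whole-number read count for each distinct sequence, no normalization and no genome position. Per the labels' protocols, RNA was isolated with the miRNeasy kit, from MARWI immunoprecipitates or from testis followed by gel purification, and libraries were made with NEBNext small RNA reagents. Per the submitters' processing notes, Bowtie, TopHat and Cufflinks were used. How reads were trimmed and filtered, and on which build, is not given in the sources used here. The RNA-seq table is not used here. The MARWI-IP table lists 24 to 33 nt only, so shares in both files are of reads in that range, and the depth of the whole MARWI-IP library is unknown.

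Sequences were grouped by their letters. Shares have exact Clopper-Pearson 95% intervals, and ratios of shares have exact intervals from the binomial of the read counts. A count of 0 was set to 3 reads in ratios. Pair counts were divided by those expected from base shares at each position within the class, with no test, and the counting was tested on simulated reads.

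Named sequences were the 10 most abundant U1A10 and the 3 most abundant other U1 sequences of each file, the 5 leading pairs of each file, and the 3 highest and 3 lowest ratios at 100 RPM. One sequence that this rule names is not reported here. The members and these rules were chosen with earlier results of these data known. Computation used Python 3.11.15 with scipy 1.17.1, numpy 2.4.6 and pandas 2.3.3.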

Additional observations from a re-analysis of the deposited data

Results flagged for a closer look

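The difference in A at position 5 between U1A10 and other U1 reads went opposite ways in the files, at -1.67 points in MARWI-IP and 0.138 points in total testis small RNA. The difference between the files was not tested. Without the 10 most abundant sequences of each file it was -1.34 and -1.24 points.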

How the results depend on the processing

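Values are given for MARWI-IP and then total testis small RNA. No paired analysis was possible because each library is 1 column, and no replicate could be left out. The A10 share of U1 reads was 29.9% and 29.1% over distinct sequences, 31.4% and 30.3% at 28 to 31 nt, 31.5% and 30.1% without sequences read once, 31.5% and 29.1% without the 10 most abundant sequences, and 29.8% in total testis small RNA at 24 to 33 nt. The A5 difference in points reversed over distinct sequences (0.402 and -0.102), and in total testis small RNA also at 28 to 31 nt (-0.298) and without the 10 most abundant sequences (-1.24). In MARWI-IP it was -1.52 at 24 to 33 nt, -2.26 at 28 to 31 nt, -1.75 without sequences read once and -1.34 without the 10 most abundant.

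The mean length difference in nt was 0.0440 and 0.0998 over distinct sequences, 0.0679 and 0.109 at 24 to 33 nt, 0.0739 and 0.0691 at 28 to 31 nt, 0.0782 and 0.103 without sequences read once, and 0.0622 and 0.0877 without the 10 most abundant. The 10-nt pair ratio was 1.62 and 1.91 over distinct sequences, 42.1 and 17.4 at 24 to 33 nt, 44.95 and 19.5 at 28 to 31 nt, 45.2 and 21.9 without sequences read once, 28.3 and 11.5 without the 10 most abundant, 1.70 and 2.44 without the 5 leading pairs, and 36.3 and 12.7 relative to the mean at 9 and 11 nt. Relative to that mean, and chosen after seeing the data, it was 2.27 and 2.36 without the 5 leading pairs of each overlap and 1.06 and 1.08 over distinct sequences.

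The U1A10 ratio of MARWI-IP to total reversed to 0.989 over distinct sequences, whose numbers depend on the depth of each file. It was 1.148 at 24 to 33 nt, 1.208 at 28 to 31 nt, 1.141 without sequences read once and 1.157 without the 10 most abundant. The percentage of U1A10 sequences at least 2-fold higher in MARWI-IP was 46.1% at a mean of 50 RPM, where all piRNA-length sequences gave 39.9%, and at a fold of 4 it was 11.3%, where they gave 10.3%. The cause of these changes was not tested. Depth limits single sequences most in total testis small RNA, where fewer reads were deposited.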
